A study of Homo sapiens with 6 samples.

Results

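The 55 genes described here act in mitosis and chromosome segregation. They were chosen by name, for their function: cyclins, mitotic kinases, kinesins, centromere, spindle checkpoint and condensin genes, out of 46287 rows of a gene count table. All 55 were found, and all 55 passed the filter on low counts, with at least 176 counts in every library. The libraries came from HaCat cells (usually written HaCaT), an immortalized line of human epidermal keratinocytes, the cells that make up the outer layer of skin. RNA was sequenced from 3 libraries of wild-type control cells and 3 of cells labelled as carrying a homozygous CRISPR/Cas9 knockout of SDR42E1, a short-chain dehydrogenase/reductase gene that the study connects with serum vitamin D. Both groups were grown in the same medium and collected before confluence. The labels call the replicates biological and speak of RNA pools, without naming cultures or clones. The p-values therefore rest on the spread of these 6 libraries, part of which may be technical.

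Mitosis is driven by CDK1 bound to cyclins A and B. These kinases start chromosome condensation, spindle assembly and the attachment of chromosomes to microtubules at kinetochores, and the spindle checkpoint delays separation until every kinetochore is attached. The anaphase-promoting complex then marks securin and cyclin B for destruction, sister chromatids part, and cytokinesis divides the cell. Most of these genes are transcribed mainly in G2 and M phase, under the MuvB complex with B-MYB and FOXM1. In bulk RNA, fewer cells in mitosis and less RNA per mitotic cell cannot be told apart.

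Library totals ran from 11504473 to 16928201 counts. SDR42E1 itself was at 46.8, 47.6 and 48.8 CPM (the count divided by the scaled size of its library) in control and 23.2, 20.1 and 20.7 CPM in knockout libraries, a log2 fold change of -1.16 (SE 0.084, adjusted p = 2.69e-14). Its RNA was lower in every knockout library and still present, and the 20 genes nearest to it had a median log2 fold change of -0.57. All 8 keratinocyte markers were detected, with summed levels of 8404 to 9049 CPM in control and 9651 to 10102 CPM in knockout libraries. Single markers moved both ways: KRT5 fell by 0.66 on the log2 scale, KRT6A, KRT17, COL17A1 and TP63 rose by 1.26, 0.66, 0.41 and 0.25, and KRT14, DSP and DSG3 did not pass. The summed markers of other cells were far lower: 4.30 to 6.19 against 1.12 to 2.13 CPM for 7 fibroblast genes, 24.3 to 25.2 against 19.5 to 23.7 CPM for 6 melanocyte genes, 5.68 to 8.68 against 8.31 to 9.94 CPM for 6 immune genes and 3.65 to 4.28 against 1.92 to 2.66 CPM for 4 endothelial genes. Among these, DCN, PDGFRA, TYR and CD3E were at 0 in all 6 libraries, and most of the melanocyte sum was MITF (21.3 CPM in control). Their part in the results was not tested.

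Most mitotic genes had less RNA in the knockout, by modest amounts. Of the 55, 36 fell, 4 rose and 15 did not pass the threshold (adjusted p under 0.05 in edgeR's quasi-likelihood test, adjusted over all 12293 genes tested). That is 65.5% lower and 7.27% higher. Over all genes tested, 25.8% were lower and 24.6% higher, and 50.4% either, so changes of this kind were common in these cells. The median log2 fold change was -0.18 for the mitotic genes and -0.00 for all genes tested. Single values ran from -1.30 for TOP2A to 0.26 for MAD2L1. TOP2A was the 1 member that changed at least 2-fold, 5 fell at least 1.5-fold, and the quartiles of the members were -0.40 and -0.03.

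**Figure D1:**
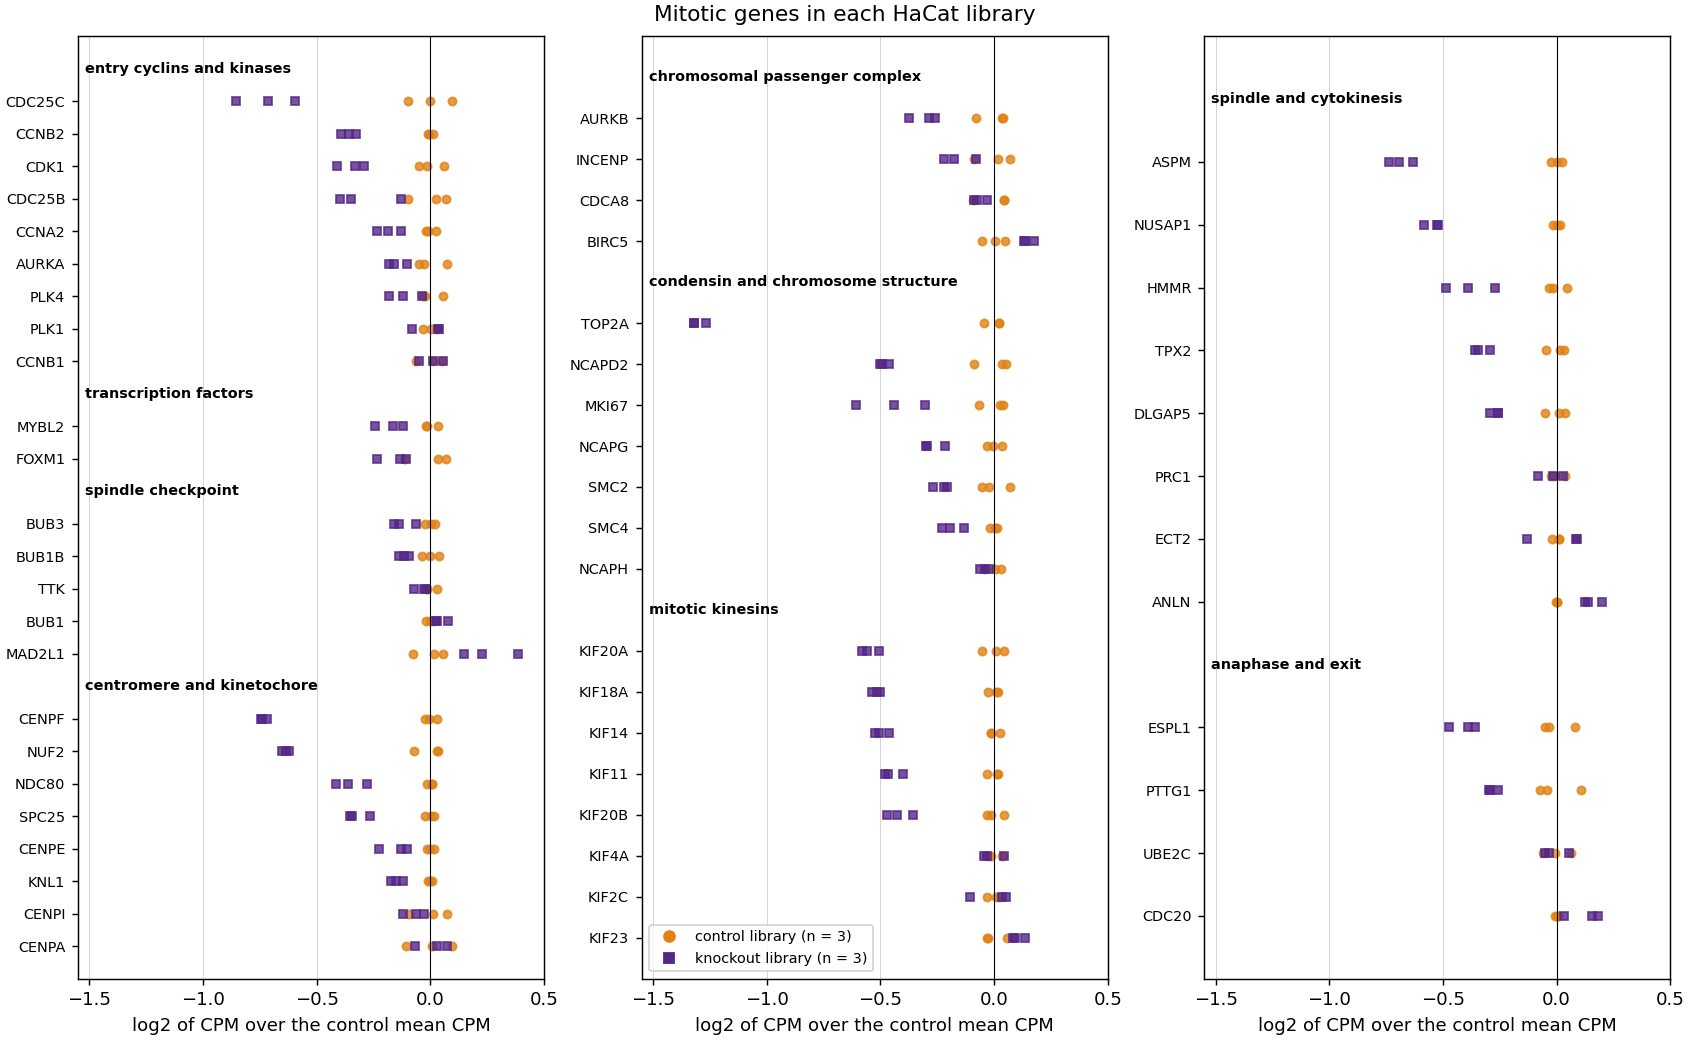
Level of each of the 55 mitotic genes in each library, as log2 of its CPM over the mean CPM of the 3 control libraries; circles are control and squares knockout libraries, and genes are grouped by role. All 3 knockout libraries lay below all 3 control libraries for 36 genes and above them for 6; TOP2A stands farthest to the left.

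The 3 knockout libraries behaved alike. Together the 55 genes held 1.504%, 1.54% and 1.53% of all counts in the control libraries and 1.16%, 1.16% and 1.18% in the knockout libraries. Their summed level was 14856, 15087 and 14998 CPM in control and 11961, 11811 and 11835 CPM in knockout libraries, a fall of the mean by 20.8%. The largest single part of that drop was TOP2A, whose mean went from 2161 to 876 CPM. Without the 5 most abundant genes (TOP2A, CENPF, MKI67, TPX2 and ANLN, which rose), the log2 ratio of the summed levels went from -0.34 to -0.20. Groups did not overlap, with the knockout below, for 65.5% of the members, against 29.0% of all genes tested. They were apart with the knockout above for 10.9% against 27.5%. In either direction, 56.5% of all genes tested had groups apart.

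**Figure D2:**
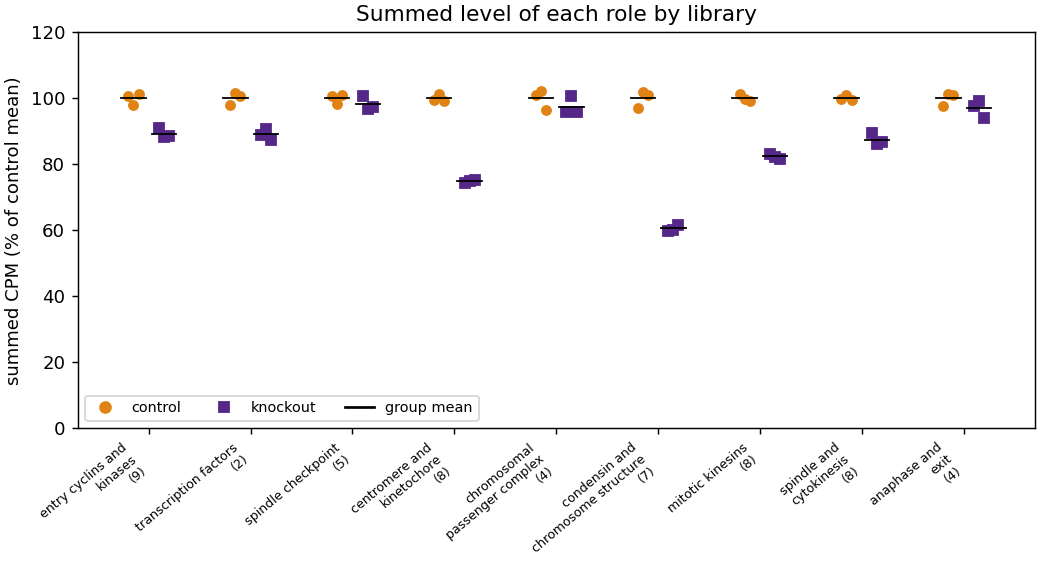
Summed CPM of the genes of each role in each library, as a percentage of the control mean; the number of genes is in brackets and the black lines are group means. Condensin and chromosome structure genes, TOP2A among them, were lowest relative to control, while spindle checkpoint, chromosomal passenger and anaphase genes overlapped between the groups.

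Promoters of these genes are a natural place to look for shared letters, since many genes of G2 and M phase carry CCAAT boxes, bound by NF-Y, and a cell cycle genes homology region (CHR), bound by MuvB. RefSeq windows of 250 bases before to 50 after a start (GRCh38.p14) were matched by symbol for 47 of the 55 members, in 61 windows. AURKA, FOXM1, BUB3, TTK, KNL1, BIRC5, TPX2 and UBE2C had no window. The letters searched on both strands were CCAAT for the CCAAT box, read on the opposite strand as ATTGG. For the CHR, the main form searched was TTTGAA, also on both strands. A less frequent form of the CHR, spelled TTCGAA and the same on both strands, was counted with it. A CCAAT box was in 67.2% of the members' windows and in 35.1% of 14448 windows of all genes tested, and a CHR in 65.6% against 12%. Both motifs together were in 50.8% against 4.93%.

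Counted by window, members that fell and members that did not pass held these letters at like shares. Windows of members that fell held a CCAAT box in 66.7% and a CHR in 64.3%. Those of members that did not pass held them in 68.8% and 62.5%. Some genes had several windows. Counted once per gene, a CCAAT box was in 74.2% of genes that fell and 84.6% of genes that did not pass. A CHR was in 80.6% and 69.2% of them. These differences were not tested. All 3 windows of members that rose held a CHR. The stretches below are examples from genes of each kind, picked because they carry both motifs, and do not show the shares. Stretches of CDC25C, which fell, and of KIF2C, which did not pass, cut in the same way, held neither. Those of CDC25C came from its upstream starts, and its windows at starts further downstream held both motifs. CCAAT boxes and CHR letters are in capitals and all other bases in lower case, 5′ to 3′ on the gene's strand. Each begins 120 bases before the RefSeq start and ends at the start or at the nearest GENCODE exon. KIF11 (chr10:92593010-92593129, plus strand), ESPL1 (chr12:53268179-53268298, plus strand), MKI67 (chr10:128126424-128126543, minus strand) and ASPM (chr1:197146695-197146789, minus strand) fell. KIF4A (chrX:70289984-70290089, plus strand) did not pass the threshold, and CDC20 (chr1:43358861-43358954, plus strand) rose.
KIF11: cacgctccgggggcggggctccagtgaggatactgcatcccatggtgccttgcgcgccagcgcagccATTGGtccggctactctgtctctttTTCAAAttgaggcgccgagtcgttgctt
ESPL1: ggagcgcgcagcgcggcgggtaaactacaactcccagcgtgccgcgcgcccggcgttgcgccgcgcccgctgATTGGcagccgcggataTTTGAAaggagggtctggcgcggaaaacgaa
MKI67: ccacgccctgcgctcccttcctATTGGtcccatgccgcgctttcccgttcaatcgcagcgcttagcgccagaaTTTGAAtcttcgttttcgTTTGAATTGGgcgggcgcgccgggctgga
ASPM: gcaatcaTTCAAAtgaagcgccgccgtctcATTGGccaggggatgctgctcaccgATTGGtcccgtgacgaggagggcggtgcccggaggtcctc
KIF4A: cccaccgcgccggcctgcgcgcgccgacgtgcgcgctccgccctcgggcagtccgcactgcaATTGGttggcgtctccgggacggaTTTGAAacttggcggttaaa
CDC20: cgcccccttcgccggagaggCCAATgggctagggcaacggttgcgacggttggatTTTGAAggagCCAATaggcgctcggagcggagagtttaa
In KIF11 the CCAAT box began 53 bases and the CHR 28 bases before the start. ESPL1 had them at 48 and 31 bases, and KIF4A at 58 and 34. So KIF11, with a log2 fold change of -0.45, and KIF4A, with one of -0.01, both carried 1 CCAAT box and 1 CHR at like distances, the CHR in opposite orientations. In MKI67 the second CHR and the second CCAAT box overlap, which gives 1 run of capitals. The stretch of CDC20 carried a CHR, at 65 bases, between CCAAT boxes at 100 and 55 bases. Its window held another CHR at 178 bases, before the stretch begins. A match is a description of letters and does not show that a factor was bound.

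The genes of mitotic entry split within families of like function. Of 9 cyclin and kinase genes, 6 fell, 0 rose and 3 did not pass, with a median log2 fold change of -0.18. CDC25C, a phosphatase that activates CDK1, was at 26.1, 29.9 and 27.9 CPM in control and 17.0, 18.5 and 15.5 CPM in knockout libraries. That was a fall by 0.72 on the log2 scale (SE 0.099, adjusted p = 1.57e-07), the largest fall in this role. CDC25B, a second phosphatase of the same family, was at 137, 149 and 154 against 112, 116 and 135 CPM (log2 fold change -0.29, SE 0.062, adjusted p = 0.000411); the highest knockout library came close to the lowest control library. CDK1, the main mitotic kinase, was at 257, 262 and 277 CPM in control and 217, 200 and 211 CPM in knockout libraries (log2 -0.34, SE 0.049, adjusted p = 2.83e-07). Its groups were well apart.

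The B-type cyclins, partners of CDK1, did not move together. CCNB2 was at 185, 186 and 188 CPM in control and 145, 149 and 142 CPM in knockout libraries (log2 fold change -0.36, SE 0.049, adjusted p = 1.06e-07). CCNB1, the more abundant of the pair, was at 514, 474 and 500 CPM in control and 515, 500 and 479 CPM in knockout libraries. Its log2 fold change was 0.01, with a 95% interval of -0.09 to 0.10, and its groups overlapped. Cyclin A, CCNA2, fell by 0.18 on the log2 scale (adjusted p = 0.00207) and the spindle kinase gene AURKA by 0.15 (adjusted p = 0.011; 0.0888 without control replicate 1). PLK1, which drives several steps from entry to cytokinesis, was at 69.8, 68.6 and 66.8 against 64.8, 70.3 and 70.1 CPM, with a log2 fold change of -0.00 (95% interval -0.12 to 0.12). PLK4, the kinase of centriole duplication, had a value of -0.11 (adjusted p = 0.149).

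Both transcription factor genes fell slightly. MYBL2, which encodes B-MYB, was at 124, 120 and 120 CPM in control and 112, 108 and 102 CPM in knockout libraries (log2 fold change -0.17, SE 0.054, adjusted p = 0.00662). FOXM1 was at 90.6, 103 and 100.3 against 83.4, 90.9 and 89.2 CPM (log2 -0.16, SE 0.060, adjusted p = 0.0279). The FOXM1 groups overlapped, since a knockout library stood above control replicate 1, and its call was lost under 4 of 13 other settings, with an adjusted p of up to 0.181.

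Spindle checkpoint genes changed least, and both ways. Of 5, 2 fell, 1 rose and 2 did not pass, with a median of -0.04. MAD2L1, which encodes the inhibitor that checkpoint signalling loads onto CDC20, rose the most of all 55 genes. It was at 85.1, 79.9 and 87.6 CPM in control and 110, 93.3 and 98.5 CPM in knockout libraries (log2 fold change 0.26, SE 0.062, adjusted p = 0.000662). Every knockout library was above every control library. BUB3, which carries BUB1 and BUBR1 to kinetochores, was at 242, 238 and 245 against 231, 216 and 220 CPM (log2 -0.12, adjusted p = 0.0349), and BUB1B, which encodes BUBR1, at 191, 181 and 185 against 169, 171 and 174 CPM (log2 -0.11, adjusted p = 0.0471). Both calls were marginal: BUB3 lost its call under 7 and BUB1B under 8 of 13 other settings, with adjusted p up to 0.131 and 0.152. The kinase gene BUB1 had a value of 0.04 (95% interval -0.05 to 0.14) and TTK, the kinase gene that starts checkpoint signalling, one of -0.04 (-0.13 to 0.06).

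Among centromere and kinetochore genes, 6 of 8 fell, 0 rose and 2 did not pass (median -0.23). CENPF, a large microtubule-binding protein of the outer kinetochore, was at 773, 794 and 764 CPM in control and 464, 472 and 466 CPM in knockout libraries, a fall of 39.9% (log2 fold change -0.73, SE 0.045, adjusted p = 1.89e-16). The knockout libraries differed from each other by far less than from any control library. The gene lies on chromosome 1 from 214603195 to 214664588 (GRCh38, plus strand).

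The NDC80 complex is the main microtubule coupler of the kinetochore, and its 3 subunit genes in this set all fell. NUF2 was at 88.9, 89.2 and 82.9 CPM in control and 55.4, 56.7 and 56.1 CPM in knockout libraries (log2 fold change -0.64, SE 0.062, adjusted p = 6.55e-11). NDC80 was at 87.3, 87.3 and 86.2 against 71.7, 65.2 and 67.6 CPM (log2 -0.35, SE 0.060, adjusted p = 7.14e-06). SPC25 was at 19.7, 19.3 and 19.9 against 16.3, 15.5 and 15.4 CPM (log2 -0.32, SE 0.10, adjusted p = 0.011), and DESeq2 did not call it (adjusted p = 0.0594). The fourth subunit gene, SPC24, was not among the 55 and is described with the other kinetochore genes. KNL1, the scaffold that recruits the BUB proteins, was at 406, 404 and 409 CPM in control and 374, 361 and 366 CPM in knockout libraries (log2 -0.15, adjusted p = 0.00662). CENPE, a kinesin that moves chromosomes to the spindle equator, changed by the same amount (log2 -0.15, adjusted p = 0.00965) and lost its call without control replicate 2 or knockout replicate 1 (adjusted p up to 0.0758). CENPA, the histone variant that marks centromeres, had a value of 0.02 (95% interval -0.14 to 0.18), and CENPI one of -0.07 (-0.19 to 0.05).

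The chromosomal passenger complex joins the kinase AURKB to INCENP, survivin (BIRC5) and borealin (CDCA8), and corrects faulty attachments. Its genes moved in different directions, with 2 falls, 1 rise and 1 that did not pass. AURKB was at 83.4, 90.6 and 90.4 CPM in control and 68.1, 73.7 and 72.2 CPM in knockout libraries (log2 fold change -0.30, SE 0.061, adjusted p = 6.96e-05). BIRC5 was at 198, 192 and 184 against 210, 216 and 210 CPM (log2 0.15, SE 0.048, adjusted p = 0.0098; 0.0789 without control replicate 3). So the kinase gene and the survivin gene were on opposite sides of 0, each with groups apart. INCENP was at 127, 131 and 118 against 111, 119 and 108 CPM, with overlapping groups (log2 -0.16, adjusted p = 0.0171, and up to 0.136 under the 4 settings that lost the call). CDCA8 had a value of -0.07 (95% interval -0.20 to 0.06).

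The genes of chromosome structure held the largest change. Of 7, 6 fell, 0 rose and 1 did not pass (median -0.27), and their summed level fell by 39.5%. Most of that was TOP2A: the sum of the other 6 went from 2178 CPM to 1751 CPM, a fall of 19.6%. TOP2A encodes topoisomerase II alpha, which untangles sister DNA, and lies on chromosome 17 from 40388516 to 40417950 (GRCh38, minus strand). It was at 2096, 2194 and 2193 CPM in control and 897, 867 and 865 CPM in knockout libraries. TOP2A fell by 59.5%, or 1.30 on the log2 scale (SE 0.045, adjusted p = 4.47e-24). Per kilobase of exon TOP2A had the highest level of the 55 genes in control cells, 336 CPM per kilobase, and the next was CCNB1 at 194. MKI67, the gene of the proliferation marker Ki-67, was at 654, 698 and 703 CPM in control and 450, 505 and 555 CPM in knockout libraries (log2 -0.45, SE 0.059, adjusted p = 2.57e-06). The knockout libraries spread more here than in most members, yet all lay below the controls.

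Condensin I is a ring of SMC2 and SMC4 closed by NCAPD2, NCAPG and NCAPH, which compacts mitotic chromosomes. Of its 5 subunit genes, 4 fell and NCAPH did not pass. NCAPD2 was at 304, 336 and 332 CPM in control and 230.1, 235 and 229 CPM in knockout libraries (log2 fold change -0.49, SE 0.048, adjusted p = 1.12e-10). NCAPG was at 183, 188 and 180.0 against 158, 150 and 149 CPM (log2 -0.27, SE 0.049, adjusted p = 1.76e-05). SMC2 and SMC4 fell by 0.23 and 0.19 on the log2 scale (adjusted p = 9.87e-05 and 0.000847). NCAPH had a value of -0.04 (adjusted p = 0.608) and a 95% interval of -0.16 to 0.08. The difference between NCAPH and NCAPD2 was not tested.

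Mitotic kinesins differed widely among themselves. Of 8 genes, 5 fell by 0.42 to 0.55 on the log2 scale, and 3 lay between -0.01 and 0.10 and did not pass. KIF20A, a motor of cytokinesis, was at 296, 289 and 278 CPM in control and 193, 203 and 195 CPM in knockout libraries (log2 fold change -0.55, SE 0.048, adjusted p = 3.86e-12). KIF14, also a motor of cytokinesis, was at 234, 234 and 240.1 against 164, 166 and 171 CPM (log2 -0.50, SE 0.048, adjusted p = 4.22e-11). KIF18A, which damps chromosome movements at the spindle equator, was at 119, 118 and 115 against 82.9, 82.0 and 80.9 CPM (log2 -0.52, SE 0.055, adjusted p = 4.77e-10). In all of these the replicates lay close together and the groups far apart.

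KIF11, the motor that pushes spindle poles apart, was at 265, 274 and 274 CPM in control and 205, 196 and 194 CPM in knockout libraries (log2 fold change -0.45, SE 0.047, adjusted p = 4.46e-10). KIF20B fell by 0.42 (adjusted p = 4.51e-09). The 3 kinesins that did not pass were KIF2C, a microtubule depolymerase at centromeres (log2 -0.00, 95% interval -0.11 to 0.10), KIF4A, a motor on chromosome arms (-0.01, -0.12 to 0.10), and KIF23, the motor of the centralspindlin complex. KIF23 was at 326, 306 and 308 CPM in control and 344, 332 and 334 CPM in knockout libraries (log2 0.10, adjusted p = 0.061). All its knockout libraries were above the controls, and it passed under 4 of 13 other settings, with the replicate block among them (lowest adjusted p 0.0322). Reads of KIF4A may be split with its intronless copy KIF4B.

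Most genes of the spindle and cytokinesis fell. Of these 8, 5 fell, 1 rose and 2 did not pass (median -0.30). ASPM, which focuses spindle poles, was at 521, 539 and 531 CPM in control and 328, 318 and 342 CPM in knockout libraries (log2 fold change -0.69, SE 0.046, adjusted p = 3.37e-15). NUSAP1, which bundles microtubules near chromosomes, was at 295, 298 and 301 against 207, 208 and 199 CPM (log2 -0.54, SE 0.047, adjusted p = 3.02e-12). TPX2, the activator of AURKA on the spindle, was at 633, 641 and 607 against 494, 512 and 489 CPM (log2 -0.33, SE 0.046, adjusted p = 1.26e-07). In each of the 3 the groups were far apart.

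HMMR was at 172, 182 and 174 CPM in control and 146, 126 and 134 CPM in knockout libraries (log2 fold change -0.38, SE 0.053, adjusted p = 1.9e-07), and DLGAP5 fell by 0.27 (adjusted p = 1.28e-05); both encode spindle proteins that bind microtubules. ANLN, an actin-binding scaffold of the furrow, rose: it was at 820.1, 819 and 817 CPM in control and 940.1, 900.1 and 893 CPM in knockout libraries (log2 0.15, SE 0.044, adjusted p = 0.00382). ECT2, which activates RHOA at the furrow, had a value of 0.02 (95% interval -0.08 to 0.12) with knockout libraries at 296, 254 and 296 CPM on both sides of the controls. PRC1, which bundles microtubules of the central spindle, had one of -0.02 (-0.11 to 0.07).

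At the exit from mitosis, the separase and securin genes fell. Of 4 genes, 2 fell, 1 rose and 1 did not pass. ESPL1, which encodes separase, the protease that cuts cohesin, was at 68.4, 74.2 and 67.6 CPM in control and 50.5, 53.5 and 54.7 CPM in knockout libraries (log2 fold change -0.41, SE 0.066, adjusted p = 2.98e-06). PTTG1, which encodes its inhibitor securin, was at 119.5, 122 and 136 against 102, 102 and 105 CPM (log2 -0.28, SE 0.056, adjusted p = 6.07e-05); its reads may be split with near-identical PTTG copies. CDC20, the mitotic activator of the complex, was at 247, 245 and 246 CPM in control and 279, 274 and 251 CPM in knockout libraries (log2 0.13, SE 0.048, adjusted p = 0.0298). That rise lost its call under upper-quartile scaling and without any 1 of 5 libraries, with adjusted p up to 0.121. UBE2C, the ubiquitin-conjugating enzyme of the complex, was at 177, 193 and 183 against 180.0, 191 and 178 CPM (log2 -0.01, 95% interval -0.11 to 0.09).

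**Figure D3:**
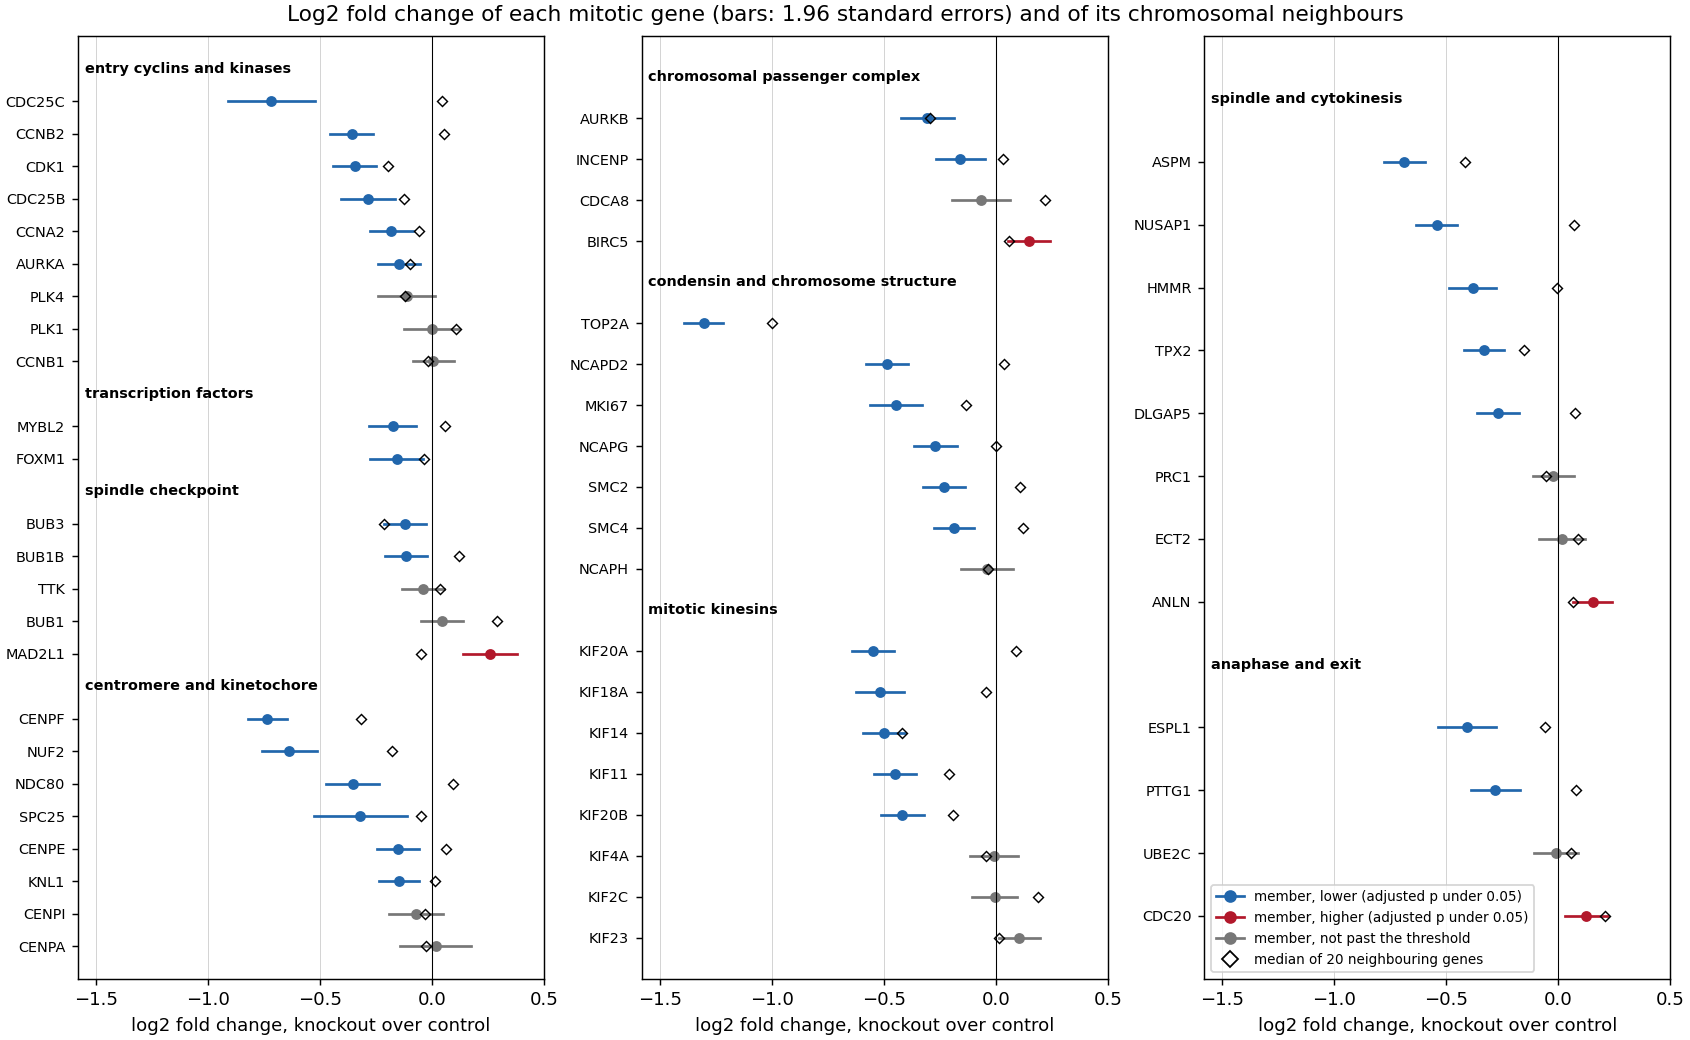
Log2 fold change of each of the 55 genes, knockout over control, with bars of 95% intervals; blue fell, red rose and grey did not pass the threshold. Open diamonds give the median log2 fold change of the 20 nearest tested genes on the chromosome; TOP2A, ASPM, KIF14 and CENPF have low diamonds, while those of CDC25C, KIF20A and NUSAP1 lie near 0.

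In some regions of the genome neighbouring genes were shifted together, so each member was set beside 20 tested genes, the nearest 10 on each side by start position. The other members were left out of these neighbours, as were genes whose average level on the log2 CPM scale was under 2. NDC80, near a chromosome end, had 16 neighbours. The median of those neighbours was at least 0.2 in size on the log2 scale for 10 of the 55 members (18.2%) and for 15.6% of 10270 other genes. TOP2A had the most lowered neighbours of the 55, with a median of -0.998, and its own value differed from that by -0.30. ASPM and KIF14, both on the long arm of chromosome 1, had neighbours at -0.42 each and differed from them by -0.27 and -0.08. CENPF, on the same arm, had neighbours at -0.32 and differed from them by -0.42, and KIF11, on chromosome 10, had neighbours at -0.21. AURKB, on the short arm of chromosome 17, lay close to its neighbours (-0.30 against -0.29), and BUB3 was above its own (-0.12 against -0.21). CDC20, BUB1 and CDCA8 had raised neighbours (0.21, 0.29 and 0.22). Just under the limit were CDK1 (-0.19), KIF20B (-0.19), KIF2C (0.19) and NUF2 (-0.18, also on the long arm of chromosome 1). The 5 members that fell at least 1.5-fold were TOP2A, CENPF, CDC25C, ASPM and NUF2. Of these only CDC25C lacked a lowered neighbour median. For 7 members the side of the limit depended on the number of neighbours. With 10 neighbours, CDK1 (-0.26) and BUB1B (0.22) passed it and BUB1 (0.01) did not. With 40 neighbours, NUF2 (-0.40) and SMC2 (0.20) passed it, and BUB3 (-0.18) and CDC20 (0.17) did not.

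Most members outside such neighbourhoods fell as well. Of the 45 members whose neighbours were shifted by less than 0.2, 29 fell, 3 rose and 13 did not pass (median -0.17). That is 64.4% lower, against 21.4% of 8667 other genes in unshifted neighbourhoods. With 10 neighbours 27 of 44 such members fell, and with 40 neighbours 28 of 45. Over all 55, 45 were below the median of their own neighbours, and the median difference was -0.20. The largest falls with neighbours near 0 were those of CDC25C (neighbours 0.05), KIF20A (0.09), NUSAP1 (0.07), KIF18A (-0.04) and NCAPD2 (0.04). Each has an exon that overlaps an exon of another gene, on the same strand for NUSAP1 and on the opposite strand for the others. Reads could be shared there, as given below. CDC25C and KIF20A lie close together on chromosome 5, from 138285265 to 138338355 and from 138178719 to 138187715, and each was lower than all 20 of its neighbours, from which the other was left out as a member.

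**Figure D4:**
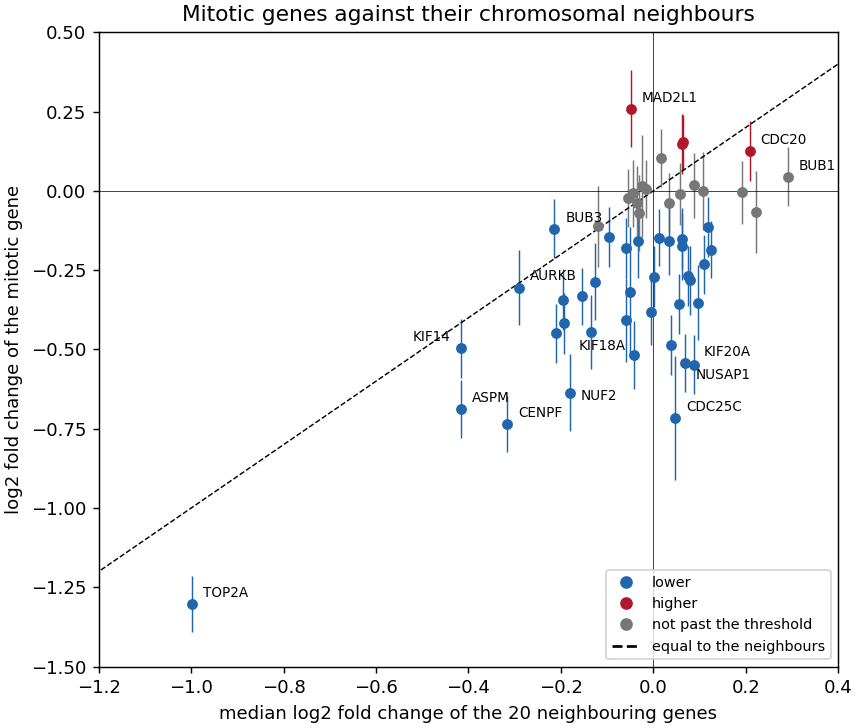
Log2 fold change of each mitotic gene (vertical, with bars of 95% intervals) against the median log2 fold change of its 20 neighbouring genes (horizontal); the dashed line marks equal values. Of 55 points 45 lie below the line, TOP2A at the lower left among them, and MAD2L1 lies farthest above it.

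Other genes of cell division, 141 in 8 lists, gave 54 falls, 18 rises and 69 that did not pass, with a median of -0.09. That is 38.3% lower and 12.8% higher, against 25.8% and 24.6% of all genes tested. Of the 120 list genes with unshifted neighbours, 38 fell and 18 rose (median -0.07). Of the 21 with shifted neighbours, 16 fell and 0 rose. For the 8667 non-member genes in unshifted neighbourhoods, the shares were 21.4% lower and 29.1% higher. Among lists of more than 3 genes, the lower share ran from 23.5% for the anaphase-promoting complex, near that of all genes, to 53.3% for the other outer kinetochore and checkpoint genes. Of these last, 8 of 15 fell, 1 rose and 6 did not pass (median -0.22). SPC24, the remaining NDC80 subunit, was lower by 0.43 on the log2 scale (adjusted p = 1e-07). The MIS12 complex genes NSL1 and DSN1 fell by 0.60 and 0.39, and SPDL1, which brings dynein to kinetochores, fell by 0.50; the neighbours of NSL1 stood at -0.33. Of the inner centromere list 7 of 16 fell, CENPN (-0.32), CENPL (-0.41) and CENPC (-0.48) among them, 0 rose and 9 did not pass (median -0.17). Neighbours of CENPN and CENPL were themselves at -0.46 and -0.49.

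Among other spindle, centrosome and cytokinesis genes 11 of 27 fell, 2 rose and 14 did not pass (median -0.10). TUBG1, the gamma-tubulin of microtubule nucleation, fell by 0.65, with neighbours at -0.43, and CKAP2 by 0.47. The augmin subunits HAUS4 and HAUS2 went opposite ways (-0.47 and 0.34). In the cohesin list 5 of 15 fell, 2 rose and 8 did not pass (median -0.06). The ring subunits RAD21 and SMC3 fell by 0.35 and 0.33 and the cohesin protector SGO1 by 0.48, while sororin, CDCA5, rose by 0.31. Condensin II genes gave 1 fall (NCAPD3, -0.16), 1 rise (NCAPH2, 0.17) and NCAPG2 at 0.02. Of the anaphase-promoting complex list 4 of 17 fell, 3 rose and 10 did not pass (median 0.01). UBE2S, which extends ubiquitin chains for the complex, rose by 0.39, and the small subunits ANAPC16 and ANAPC15 and the subunit CDC16 changed by -0.37, -0.36 and -0.23. Neighbours of ANAPC16 and CDC16 were themselves at -0.25 and -0.27.

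Upstream control genes were mixed, with 9 of 22 lower, 4 higher and 9 not past the threshold (median -0.11). The pocket protein gene RBL2 fell by 0.65, with neighbours at -0.47. CDKN3, a phosphatase of cyclin-dependent kinases, fell by 0.47, with neighbours at 0.23. CDC25A, the phosphatase of the CDC25 family that acts earliest in the cycle, rose by 0.65 (SE 0.077, adjusted p = 5.74e-09), while CDC25B and CDC25C fell as given above. The MuvB subunit genes also differed: LIN9 fell by 0.56 with neighbours at -0.29, LIN54 by 0.21, LIN52 rose by 0.27, and LIN37 (0.12) and RBBP4 (0.01) did not pass. LIN9, LIN54, LIN52, LIN37 and RBBP4 were named after their values were seen.

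Genes of S phase, which comes before G2 and mitosis, fell in 9 of 26 cases, rose in 5 and did not pass in 12 (median -0.09). That is 34.6% lower and 19.2% higher, against 25.8% and 24.6% of all genes tested. Of 22 S phase genes with unshifted neighbours, 5 fell and 5 rose. CDC6, GINS2 and CDT1, which load and activate the replication helicase, changed by -0.67, -0.79 and -0.88, and their neighbours by -1.06, -0.72 and -0.63. UHRF1, which maintains DNA methylation, rose by 0.62 with neighbours at 0.00. The summed level of the S phase genes was 5249, 5082 and 5131 CPM in control and 5059, 4971 and 4855 CPM in knockout libraries, a fall of 3.74%, against 20.8% for the mitotic genes. TOP2A made up the largest single part of the mitotic fall. Without the 5 most abundant genes of each set, the log2 ratios of the summed levels were -0.05 for S phase and -0.20 for mitotic genes. No test of the difference between these lists was made.

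**Figure D5:**
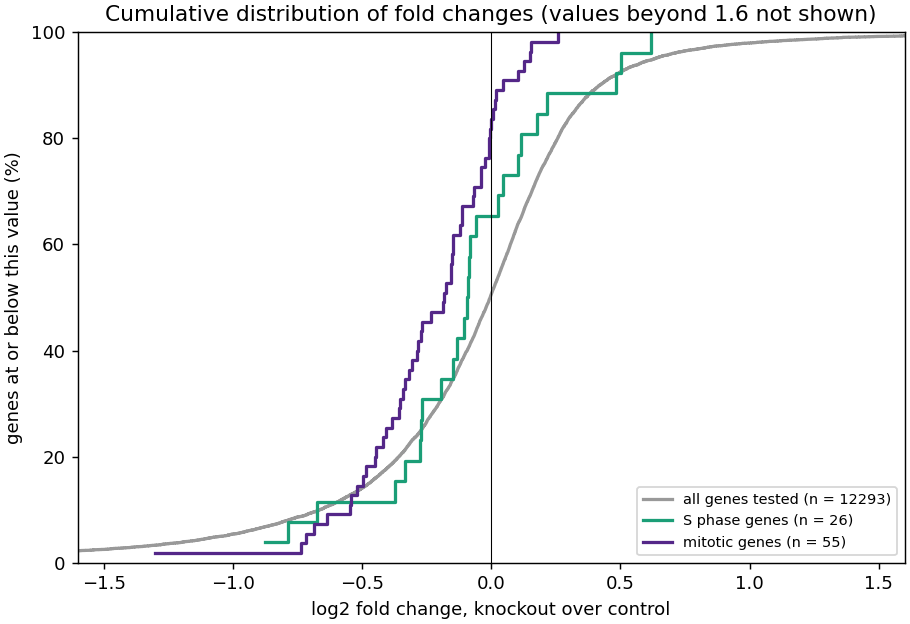
Cumulative share of genes (vertical, in percent) at or below each log2 fold change (horizontal, knockout over control) for 55 mitotic genes, 26 S phase genes and 12293 genes tested. The curve of the mitotic genes lies to the left of the others over most of its range, with a median of -0.18 against -0.09 and -0.00, and ends at 0.26.

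The counting may limit many of these values. Exons of 17 of the 55 members overlap an exon of a gene on the opposite strand in GENCODE release 29, and exons of 4 overlap another gene on the same strand. The library kit keeps strand, but whether the counting used it was not found in the labels, so reads of KIF20A and its antisense neighbours CDC23 and BRD8, or of BUB1B and the readthrough BUB1B-PAK6, could be shared.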

How the data were processed

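RNA of 6 libraries was made with a stranded total-RNA kit, per the labels' protocols. The authors deposited raw read counts per gene, 1 column per library. GRCh38 is the build in the submitters' processing notes; for aligner, counter and annotation: not given in the sources used here. Of 46287 rows 16383 had a count, and 0 lacked a gene. Within a group, libraries varied beyond counting noise (chi-square over its degrees of freedom 2.65 to 4.49), so each was kept as a replicate.

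The test was edgeR (4.0.16, R 4.3.3): filterByExpr with minimum count 10 and minimum total 15, TMM scaling, robust quasi-likelihood F test, two-sided, no block, Benjamini-Hochberg over 12293 genes, threshold 0.05. SEs came from dividing the size of the log2 fold change by the root of F, and gave normal 95% intervals. CPM used the TMM-adjusted total. The code of the test was checked on simulated counts in which all genes shared the same spread and few were changed. That check does not vouch for the calls in these data. Replicate numbers did not pair libraries (correlations of deviations 0.02, -0.09 and -0.01). Positions and exon lengths are from GENCODE release 29.

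Members and lists were chosen with earlier results of these data known. In each role and list up to 4 genes of smallest adjusted p were named, with members that rose or did not pass; others were added after their values were seen. Some genes that this rule names are not reported here. Alternatives were DESeq2 1.42.0, limma-voom (limma 3.58.1), RLE and upper-quartile scaling, 2 other filters, a replicate block and leaving out each library.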

Additional observations from a re-analysis of the deposited data

How the results depend on the processing

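Against 40 members called (4 higher, 36 lower), DESeq2 called 36 (5 and 31), limma-voom 40 (4 and 36), RLE scaling 39 (4 and 35), upper-quartile scaling 39 (3 and 36), no filter 38 (4 and 34) and the 1 CPM filter (met in 3 libraries) 40 (4 and 36). Leaving out 1 library gave 34 to 39 calls, with 2 to 5 higher and 31 to 34 lower; the 2 were without control replicate 3. Same-numbered libraries share only a number; with the replicate block 41 members passed (5 higher, 36 lower), and 0 of 3 numbers had each library closest to its own partner. Counting only members with unshifted neighbours, chosen after seeing the data, gave 32 calls. Upper-quartile scaling moved all genes by -0.03 on the log2 scale. Of the 55 members, 45 kept their call under all 13 settings, 29 of them lower, 10 crossed the threshold under at least 1, and 0 called values changed sign. The log2 ratio of the summed level went from -0.34 to -0.39 with plain library totals and to -0.20 without the 5 most abundant members, by construction a smaller set. SDR42E1 stayed at -1.22 to -1.12 over these settings. The median difference from the neighbours was -0.18 with 10 and -0.20 with 40 neighbours. The summed level of the chromosome structure genes went from -0.72 to -0.31 without TOP2A, also chosen after seeing the data.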
